A study of Danio rerio with 8 samples.

Results

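The genes described here act in phototransduction of rods, the photoreceptors of dim-light vision. They were picked by symbol as rho, gnat1, gngt1, gnb1b, saga, sagb, pde6a, pde6b and nrl, with earlier results of these data known. All 9 were found among the 20409 genes of the series. All 9 passed the filter on low values, as did 20154 genes in all. RNA sequencing was done on whole zebrafish larvae at 4 days post fertilization, with 30 untreated larvae pooled per library. The smh mutants were homozygous (-/-) and had been picked by a tail curled downwards. Their siblings were a mixture of wild-type (wt) and heterozygous (+/-) larvae, so the control group also holds carriers. Each of 4 clutches gave 1 mutant and 1 sibling library, which makes 4 libraries per genotype. The smh line carries a mutation of ccdc103, which is needed for the beating of motile cilia, and the series asked how paralysed cilia alter gene expression. No number for the sequencing depth is given in the sources used here.

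In a rod, light activates rhodopsin, which switches on the G protein transducin. Transducin activates the phosphodiesterase PDE6, which breaks down cyclic GMP, and the cyclic GMP-gated channels of the outer segment close. Arrestin binds to activated rhodopsin and ends the signal. Cones use a parallel set of proteins encoded by other genes, and in larval zebrafish cone vision matures before rod vision. Photoreceptors carry their signalling proteins on a modified cilium that does not beat.

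Values are taken to be log2 CPM, reads of a gene relative to the library total on a log2 scale, and the authors had made their distribution equal between libraries. The unit is an inference, and CPM values are not scaled by transcript length, so the values are not read as a ranking of genes by transcript level. The mutated gene ccdc103 did not separate the genotypes, with 0.40 to 1.00 log2 CPM in siblings and 0.33 to 1.00 in mutants, so its level does not check the labels. Whole larvae contain all eye tissues, and marker genes of rods, cones, the other retinal cell types, pigment epithelium and lens were detected. Of the listed genes that were measured, guca1e alone failed the filter on low values.

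Within clutches, gngt1 and sagb were lower in mutants than in siblings, by 1.35-fold and 1.29-fold. gngt1 encodes the gamma subunit of rod transducin, and sagb encodes a rod arrestin. The other 7 genes, among them the opsin gene rho, did not pass. When libraries were compared without regard to clutch, 0 of the 9 genes passed (limma, threshold 0.05 on p adjusted by Benjamini-Hochberg over all tested genes), against 0.0744% of all tested genes (0.0198% lower and 0.0546% higher in mutants). Here 1 of 9 had an unadjusted p under 0.05, against 3.41% of all genes. With clutch as a block, 2 of 9 were called, both lower in mutants, against 1.39% of all genes called lower, 0.948% called higher and 2.34% called in either direction. At an unadjusted p under 0.05 the blocked test held 5 of 9, against 13.5% of all genes. Of these, rho, gngt1, saga and sagb were lower in mutants and gnb1b was higher. The median difference of the 9 genes was -0.15 log2 units, beside 0.00 over all tested genes. In bulk RNA, fewer rods and less RNA per rod cannot be told apart.

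**Figure D1:**
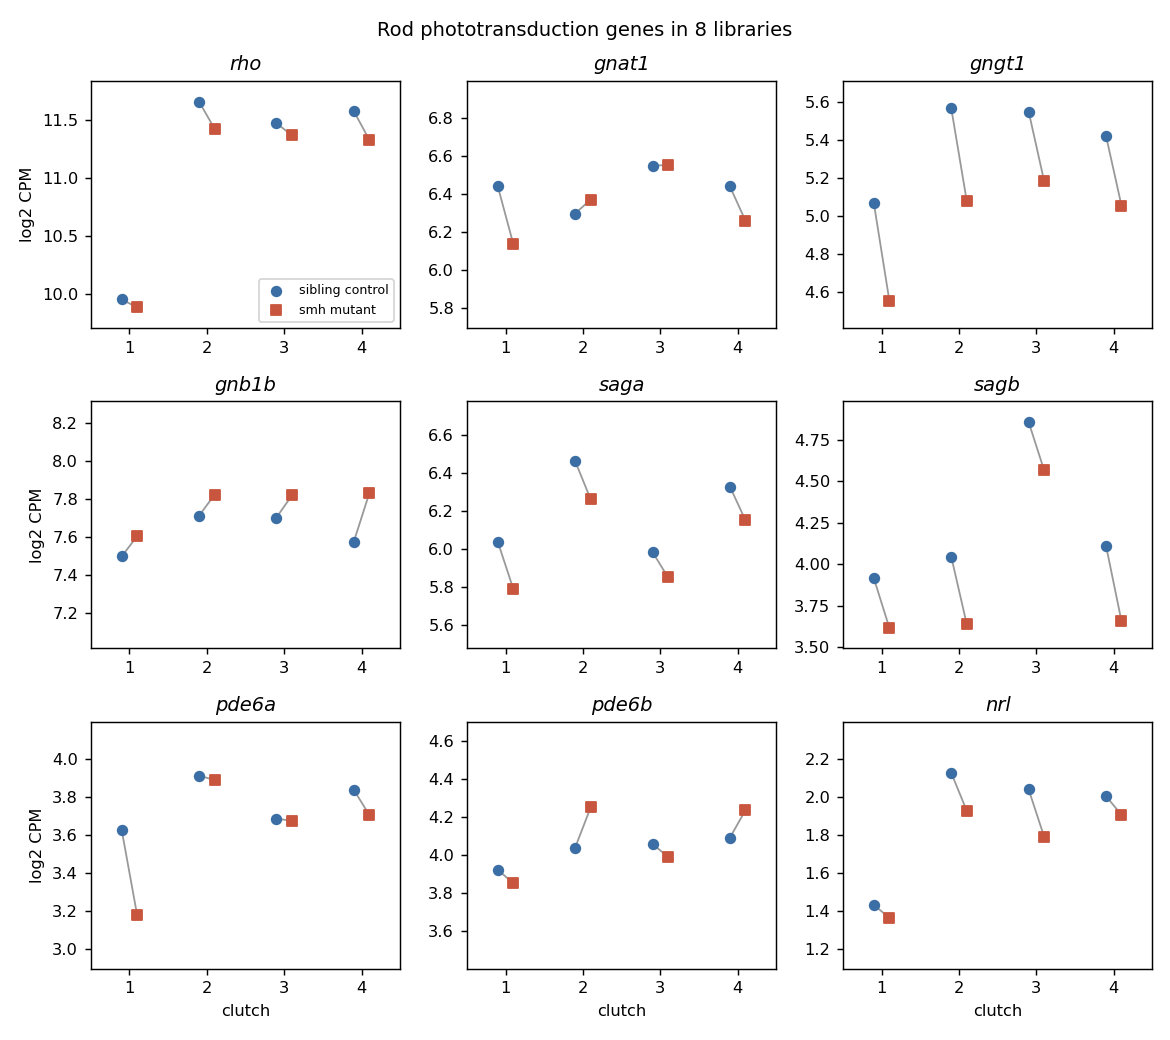
Each panel shows one rod gene, with clutch on the x axis and log2 CPM on the y axis, whose range differs between panels. Circles are sibling libraries, squares are mutant libraries, and lines join the 2 libraries of a clutch. For gngt1 and sagb every line falls from sibling to mutant, while for rho the drop between clutch 1 and the other clutches exceeds any drop between genotypes.

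Rhodopsin, the light receptor of rods, is encoded by rho (NCBI gene ID 30295). In siblings of clutches 1 to 4 it stood at 9.95, 11.66, 11.47 and 11.57 log2 CPM, and in mutants at 9.88, 11.42, 11.37 and 11.33. The mutant was the lower library in 4 of 4 clutches, but the groups overlapped because both libraries of clutch 1 lay far below the rest. Siblings averaged 11.16 ± 0.81 and mutants 11.00 ± 0.75 log2 CPM (SD, n = 4). Without the block, the 95% interval of the difference (-0.16, SE 0.46) was -1.21 to 0.88, within the spread between libraries. Within clutches its interval was -0.28 to -0.05, and the adjusted p of 0.15 (blocked limma) missed the threshold. The blocked interval thus ends at a fall of 0.28 log2 units, and it depends on how limma estimates the variance.

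Transducin links rhodopsin to the phosphodiesterase through an alpha subunit (gnat1), a beta subunit (gnb1b) and a gamma subunit (gngt1). The values of gngt1 (gene ID 335656) were 5.07, 5.57, 5.55 and 5.42 log2 CPM in siblings of clutches 1 to 4, and 4.55, 5.08, 5.18 and 5.05 in mutants. Every mutant library was below its clutch mate, and the groups overlapped only through the sibling of clutch 1, which lay below 2 mutants of other clutches. Siblings averaged 5.40 ± 0.23 and mutants 4.97 ± 0.28 log2 CPM (SD, n = 4), and the differences within clutches were -0.51, -0.49, -0.37 and -0.37 log2 units. The difference of -0.43 log2 units had an SE of 0.16 without the block (limma adjusted p = 1) and of 0.06 with it (limma adjusted p = 0.000961). The exact two-sided permutation p over the 70 arrangements of libraries, which ignores clutches, was 0.0857, where 0.0286 is the smallest possible. The blocked call held when each library and each clutch was left out in turn, and was lost in limma without a mean-variance trend and robust estimation (adjusted p = 0.0927).

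The alpha subunit gene gnat1 (gene ID 140428) had 6.44, 6.30, 6.55 and 6.44 log2 CPM in siblings and 6.14, 6.37, 6.55 and 6.26 in mutants. Mutants were lower in 2 clutches and higher in 2, by 0.00 and 0.07 log2 units in the latter, and the difference of -0.10 ± 0.07 (blocked SE) did not pass (adjusted p = 0.556). For gnb1b (gene ID 406796), siblings had 7.50, 7.71, 7.70 and 7.58 log2 CPM and mutants 7.61, 7.82, 7.82 and 7.83. Of the 9 genes, gnb1b alone had a higher value in the mutant of 4 of 4 clutches, a pattern shown by 11% of all tested genes. Its difference of 0.15 ± 0.06 log2 units (blocked SE, adjusted p = 0.24) did not pass. This beta subunit is also used outside photoreceptors, so its level in whole larvae is not a measure of rods alone. The 3 transducin genes thus had differences of -0.43, -0.10 and 0.15 log2 units in the same libraries.

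Arrestin is encoded by the paralogs saga and sagb, and how the authors' counting divided reads between them is not given in the sources used here. The values of sagb (gene ID 619268) were 3.91, 4.05, 4.86 and 4.11 log2 CPM in siblings, and 3.62, 3.64, 4.57 and 3.66 in mutants. Each mutant was below its clutch mate, while both libraries of clutch 3 stood above all others, so that the groups overlapped. Siblings averaged 4.23 ± 0.42 and mutants 3.87 ± 0.46 log2 CPM (SD, n = 4). Their difference, -0.36 log2 units, passed with clutch as a block (SE 0.08, limma adjusted p = 0.0175), but not without it (SE 0.25, adjusted p = 1). The blocked call was lost when clutch 2 or clutch 4 was left out (blocked limma adjusted p = 0.106 and 0.139), when any library of those clutches was left out (adjusted p of 0.106 to 0.147), and in limma without trend and robust estimation (adjusted p = 0.134). For saga (gene ID 792319), siblings had 6.04, 6.46, 5.98 and 6.33 log2 CPM and mutants 5.79, 6.26, 5.85 and 6.15. It was lower in the mutant of each clutch, by 0.13 to 0.25 log2 units, with a mean difference of -0.19 ± 0.06 (blocked SE) that did not pass (adjusted p = 0.123).

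The catalytic subunits of the rod phosphodiesterase are encoded by pde6a and pde6b. In pde6a (gene ID 368410) siblings had 3.63, 3.91, 3.69 and 3.84 log2 CPM, and mutants 3.18, 3.89, 3.68 and 3.71. The mutant of clutch 1 was the low library, at 0.45 log2 units below its mate, while the clutch 2 and clutch 3 pairs differed by -0.02 and -0.01. The difference of pde6a was -0.15 ± 0.09 log2 units (blocked SE, adjusted p = 0.507). Siblings had 3.92, 4.04, 4.06 and 4.09 log2 CPM of pde6b (gene ID 559332), and mutants had 3.85, 4.25, 3.99 and 4.24. Mutants were the higher library in clutches 2 and 4 and the lower one in clutches 1 and 3, and the difference of 0.05 ± 0.08 (blocked SE, adjusted p = 0.83) did not pass. Neither subunit gene separated the genotypes.

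Rod fate is set by nrl (gene ID 554169), a transcription factor that switches on rod genes. Its values were low, with 1.43, 2.13, 2.04 and 2.00 log2 CPM in siblings and 1.36, 1.93, 1.79 and 1.90 in mutants. The mutant was lower in 4 of 4 clutches, by 0.07 to 0.25 log2 units, and the difference of -0.15 ± 0.14 (blocked SE, adjusted p = 0.687) did not pass. In all, 6 of the 9 genes were lower in mutants in 4 of 4 clutches, namely rho, gngt1, saga, sagb, pde6a and nrl, against 10.9% of all tested genes. The same 6 were those lower in at least 3 clutches, against 34.5% of all genes. Other eye lists also held genes lower in 4 of 4 clutches, with 13 of 24 cone, 12 of 31 shared photoreceptor and 9 of 13 pigment epithelium genes. Bipolar cells had 6 of 12 and the pineal organ 3 of 11. Müller glia had 2 of 8, lens 1 of 12, amacrine and ganglion cells 1 of 16 and horizontal cells 0 of 8. None of the 9 had groups that did not overlap, against 1.05% of all genes with every mutant below every sibling and 1.87% with every mutant above.

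**Figure D2:**
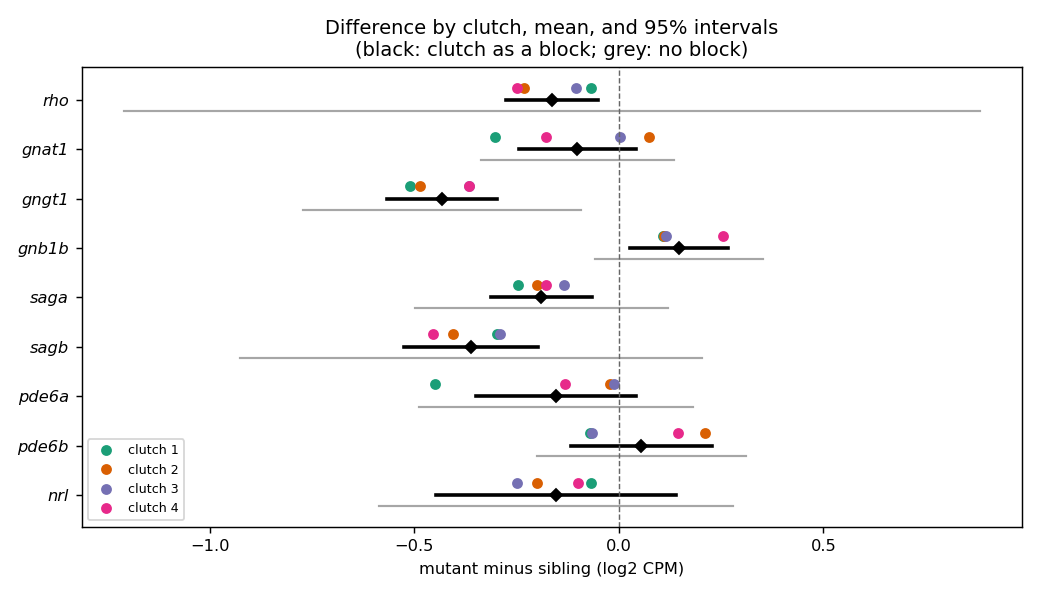
For each rod gene the x axis gives mutant minus sibling in log2 CPM, with coloured points for the 4 clutches and a diamond for their mean. Black bars are 95% intervals with clutch as a block and grey bars are those without it, and the widths differ most for rho, at -0.28 to -0.05 against -1.21 to 0.88.

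The authors' deposited table, like the fit without the block, gives no call for the 9 genes. At an adjusted p under 0.05 it calls 24 of all 20409 genes. Its log2 fold changes were -0.43 for gngt1 and -0.36 for sagb, with p-values of 0.0439 and 0.225 and adjusted p-values of 1. The mean log2 value of rho in the authors' deposited table was 10.82, whereas the 8 libraries average 11.08, and for saga the table gives 5.45 against 6.11 over the 8 libraries. Of 20409 genes, 6.62% had a table mean within 0.01 of the mean over these libraries, but 99.95% had a fold change within 0.01 of the difference computed here. The authors' deposited table therefore gives a mean that is not the mean of these 8 libraries, and the reason was not tested.

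The clutches differed as well. A moderated F test of clutch, in the fit that also holds genotype, called 5 of the 9 (rho, gngt1, saga, sagb and pde6a), against 38.6% of all tested genes. The smallest p among the 9 was that of rho (limma adjusted p = 4.62e-10), whose clutch means of 9.92, 11.54, 11.42 and 11.45 log2 CPM put clutch 1 below the average of the others by 2.93-fold. The gap was present in both genotypes, at -1.62 log2 units among siblings and -1.49 among mutants. sagb followed (adjusted p = 1.9e-05), with clutch means of 3.77, 3.84, 4.71 and 3.88, so its clutch 3 was high. gngt1 (adjusted p = 0.000566) had means of 4.81, 5.32, 5.37 and 5.24, and saga (adjusted p = 0.0007) had 5.91, 6.36, 5.92 and 6.24. For nrl the means were 1.40, 2.03, 1.91 and 1.95 (adjusted p = 0.0523), and for pde6a 3.40, 3.90, 3.68 and 3.77 (adjusted p = 0.031). gnat1, gnb1b and pde6b did not pass (adjusted p = 0.12, 0.102 and 0.171).

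Clutch 1 was thus the low clutch for many rod genes, but not by the same amount. It was the lowest clutch in both genotypes in 7 of the 9 genes, against 21.4% of all tested genes, with gnat1 and saga as the exceptions. The gap to the other clutches was -0.57 log2 units in nrl, -0.50 in gngt1, -0.38 in pde6a and in sagb, -0.26 in saga, -0.22 in pde6b, -0.19 in gnb1b and -0.12 in gnat1. Without clutch 1, the F test called 2 of the 9, saga and sagb, against 9.94% of all genes. The labels say nothing of how the clutches differed.

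The wider list of rod genes was low in clutch 1 too. Of 23 symbols, 22 were measured, and 13 of these were not among the 9. In these 13 the median gap of clutch 1 to the others was -0.80 log2 units, beside 0.05 over all tested genes, and 12 of 13 were called between clutches, against 38.6% of all genes. Clutch 1 was the lowest in both genotypes in 11 of the 13, against 21.4% of all genes. Lower in clutch 1 were pde6ga, a gene of the inhibitory PDE6 subunit (-1.56 log2 units), grk1a, which encodes a rhodopsin kinase (-1.03), and the outer segment disc genes rom1b (-1.04) and rom1a (-0.92). The rod channel gene cngb1a (-0.80) and the rod transcription factor gene nr2e3 (-0.62) were lower too. Each of these 6 passed the F test of clutch, with limma adjusted p between 1.7e-06 and 0.000184.

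Other eye genes differed in how clutch 1 compared. The median gap was -0.35 log2 units over 24 cone genes and -0.17 over 31 tested genes shared by both photoreceptor types. It was 0.00 over 13 genes of the pigment epithelium, 0.04 over 12 of bipolar cells, 0.03 over 16 of amacrine and ganglion cells, 0.21 over 8 of Müller glia and 0.14 over 12 of the lens. Over 8 genes of horizontal cells it was -0.01, and over 11 of the pineal organ -0.08. These medians were not tested against each other. The F test of clutch called 21 of 24 cone and 16 of 31 shared genes, and clutch 1 was lowest in both genotypes in 11 of each. It also called 6 of 8 Müller glia, 8 of 16 amacrine and ganglion, 6 of 12 lens and 6 of 13 pigment epithelium genes. Of the rest it called 5 of 12 bipolar, 3 of 11 pineal and 2 of 8 horizontal cell genes, against 38.6% of all tested genes. In the same order of lists, clutch 1 was lowest in both genotypes in 1, 3, 4, 1, 3, 3 and 1 genes, against 21.4% of all tested genes. Some cone genes had gaps like those of the rod genes, such as pde6hb (-1.35 log2 units), pde6ha (-1.06) and pde6c (-0.83). Other cone genes were higher in clutch 1, such as gnb3a (0.53), tbx2b (0.31), thrb (0.26), arr3b (0.17) and arr3a (0.08).

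**Figure D3:**
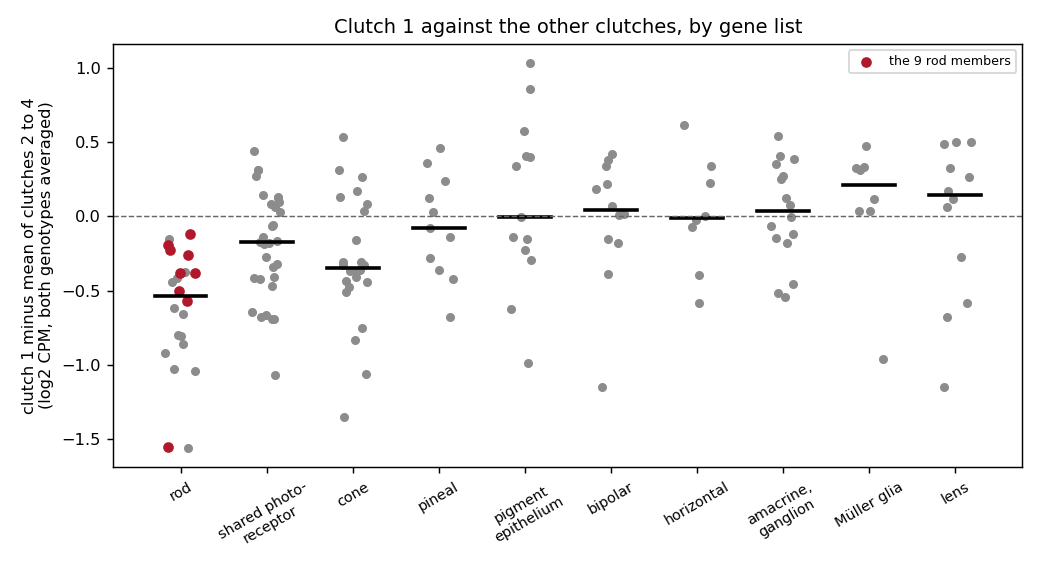
The y axis gives clutch 1 minus the mean of clutches 2 to 4 in log2 CPM, averaged over genotypes, for each tested gene of 10 lists on the x axis. Red points are the 9 rod genes and bars are list medians, at -0.53 for all 22 rod genes, -0.35 for cone genes, -0.17 for shared genes and between -0.08 and 0.21 for the other lists.

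Between genotypes, 0 of the other 13 genes of the rod list passed in either limma fit, and their median difference was -0.08 log2 units. Unadjusted p-values under 0.05 numbered 0 without the block and 1 with it, where all genes had shares of 3.41% and 13.5%. All 13 had a value below 0, against 48.9% of all tested genes, with the values nearest to it in rom1a and gnb1a, a paralog of gnb1b, at 0.00 and -0.01 log2 units. That one gene was pde6ga (blocked limma adjusted p = 0.243), at 0.58, 2.41, 1.45 and 1.76 log2 CPM in siblings and -0.28, 2.32, 1.21 and 1.09 in mutants. It had low values and, alone among the 13, was lower in 4 of 4 clutches (10.9% of all genes were), with a mean difference of -0.47 log2 units. Differences below 0 were also frequent in other eye lists, with 22 of 24 cone, 26 of 31 shared and 12 of 13 pigment epithelium genes. The pineal list had 8 of 11, among them gngt2a, otx5 and crx, which are also counted in the cone or shared list. Bipolar cells had 8 of 12 and Müller glia 5 of 8. Horizontal cells had 4 of 8, amacrine and ganglion cells 8 of 16 and lens 3 of 12.

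Some genes shared by rods and cones, and some genes of cones, were also called in the blocked fit. Over all genes that fit called 1.39% lower and 0.948% higher. Of 31 tested shared genes, 3 were lower in mutants and 0 higher. These were guca1c, a guanylate cyclase activator (1.35-fold lower, blocked limma adjusted p = 0.00404), pdcb, a phosducin that binds transducin beta and gamma subunits (1.18-fold, adjusted p = 0.0484), and unc119b (1.18-fold, adjusted p = 0.0444), related to a carrier of lipid-modified transducin alpha. Of 24 cone genes, 3 were lower and 0 higher, namely the phosphodiesterase inhibitor gene pde6ha (1.48-fold, adjusted p = 0.00243), the cone arrestin gene arr3b (1.28-fold, adjusted p = 0.00198) and the transducin gamma gene gngt2a (1.41-fold, adjusted p = 0.0351). The median difference was -0.16 log2 units for shared and -0.18 for cone genes, beside -0.15 for the 9 rod genes. Without the block, limma called 0 genes of either list. Unadjusted p-values under 0.05 then numbered 5 among shared and 0 among cone genes, against 3.41% of all genes. Within clutches those numbers were 12 and 13, against 13.5% of all genes.

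Of 13 pigment epithelium genes, the blocked fit called 6 lower and 0 higher, against 1.39% of all genes called lower, and the other 7 did not pass. The median difference was -0.37 log2 units. Called were the opsin-like genes rgra (1.72-fold) and rgrb (1.29-fold), and dct (1.46-fold) and tyrp1b (1.32-fold) of pigment synthesis, with blocked limma adjusted p of 0.0173, 0.0132, 0.0124 and 0.00224. The visual cycle genes rpe65a and rdh5 were each 1.46-fold lower (adjusted p = 0.018 and 0.0214). Without the block, limma called 0 of the 13, with the smallest adjusted p at 0.0981 for rgra. In that fit 8 of the 13 had an unadjusted p under 0.05, against 3.41% of all genes. Genes of pigment synthesis are also active in pigment cells of the skin. The summed level of the 13 genes ranged from 438 to 507 CPM in siblings and from 313 to 413 CPM in mutants. The part of these genes in the rod result was not tested. In the bipolar list, samsn1a was lower within clutches (1.23-fold, blocked limma adjusted p = 0.0241, and 1 without the block) and the other 11 members did not pass. The list of pineal genes shares gngt2a with the cone list, and otx5 and crx with the shared photoreceptor list. In it, the potassium channel gene kcnj13 was higher within clutches by 0.62 log2 units (blocked limma adjusted p = 0.00648, and 0.38 without the block). In RNA of whole larvae the tissue in which kcnj13 differed cannot be told, so its value is not read as one of the pineal organ. exorh, the opsin of the pineal organ and a close relative of rho, was not called, at a difference of 0.10 log2 units.

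Neither limma fit called a gene in the lists of Müller glia (8 genes), horizontal cells (8), amacrine and ganglion cells (16) and lens (12). At an unadjusted p under 0.05 these lists held 0, 0, 1 and 0 genes without the block, and 1, 0, 1 and 2 with it. Over all genes the shares were 3.41% without the block and 13.5% with it. The median differences of these lists were -0.07, -0.01, 0.00 and 0.15 log2 units. The members with the highest log2 CPM in these lists were apoeb and glula of glia (-0.08 and -0.06), prox1a and lhx1a of horizontal cells (0.06 and 0.05), islr2 and tfap2a of the inner retina (0.00 and 0.03), and the crystallin genes crygn2 and cryba4 (0.18 and 0.26).

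Rod genes were then set against a cone gene of the same step in each library, for 9 pairs, with exact two-sided permutation p-values adjusted over the pairs. The cone opsin sum holds the measured genes opn1sw1, opn1sw2, opn1mw1, opn1mw2 and opn1lw2. It is partial, since opn1mw3, opn1mw4 and opn1lw1 were not found in the series. rho minus the summed cone opsins was -1.85, -0.58, -0.65 and -0.66 on the log2 scale in siblings of clutches 1 to 4, and -1.68, -0.68, -0.71 and -0.56 in mutants. The genotypes had means of -0.94 ± 0.61 and -0.91 ± 0.52 (SD, n = 4), a difference of 0.03 with clutches split 2 to 2 (exact permutation p = 0.83, adjusted p = 1). Clutch 1 again stood apart, 1.13 log2 units below the mean of the others, a gap that remains after the cone opsins are taken into account. The summed cone opsins were themselves lowest in clutch 1, at 11.80 log2 CPM in siblings against 12.11 to 12.24 in the other clutches, and at 11.56 in mutants against 11.89 to 12.10. The same gap was -0.83 for nrl against thrb, a transcription factor gene of red cones. Part of that gap came from thrb, which was higher in clutch 1 by 0.26, while nrl was lower by 0.57. For gnat1 against gnat2 the gap was 0.29, and for pde6b against pde6c it was 0.61.

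Relative to gngt2b, a cone gamma subunit gene, gngt1 was at -2.53, -2.27, -2.34 and -2.43 in siblings and at -2.79, -2.72, -2.49 and -2.58 in mutants. The ratio was lower in mutants in 4 of 4 clutches, by 0.15 to 0.45, with a mean of -0.25 ± 0.07 (SE of the 4 clutch differences). It missed the threshold in the permutation test, which unlike this SE ignores clutches (exact permutation p = 0.0571, adjusted p = 0.257). gnb1b minus gnb3b, a cone beta subunit gene, was at -1.15, -1.20, -1.29 and -1.33 in siblings and at -0.88, -0.99, -1.06 and -0.88 in mutants. These groups did not overlap, with a difference of 0.29 ± 0.06 (SE of the 4 clutch differences). It had the smallest p that the permutation test allows (exact permutation p = 0.0286), but did not pass after adjustment over the pairs (adjusted p = 0.257). Since gnb1b is also used outside photoreceptors, this difference is not a measure of rods against cones alone. The remaining 6 pairs had differences of -0.20 to 0.18, each with an exact permutation adjusted p of 1. After adjustment, 0 of the 9 pairs passed, and 1 had an unadjusted p under 0.05. With 4 against 4 libraries this test could reach the adjusted threshold only with several pairs at its smallest p. The choice of cone paralog matters for these pairs. The paralogs left out, gngt2a, gnb3a and arr3b, differed between genotypes by -0.49, -0.05 and -0.36 log2 units. Those used, gngt2b, gnb3b and arr3a, differed by -0.18, -0.15 and -0.20. The rod genes gngt1 and sagb differed by -0.43 and -0.36. The difference of gngt1 was thus close to that of gngt2a (blocked SE 0.06 and 0.12), and that of sagb to that of arr3b (-0.362 against -0.358). These differences were not tested against each other.

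**Figure D4:**
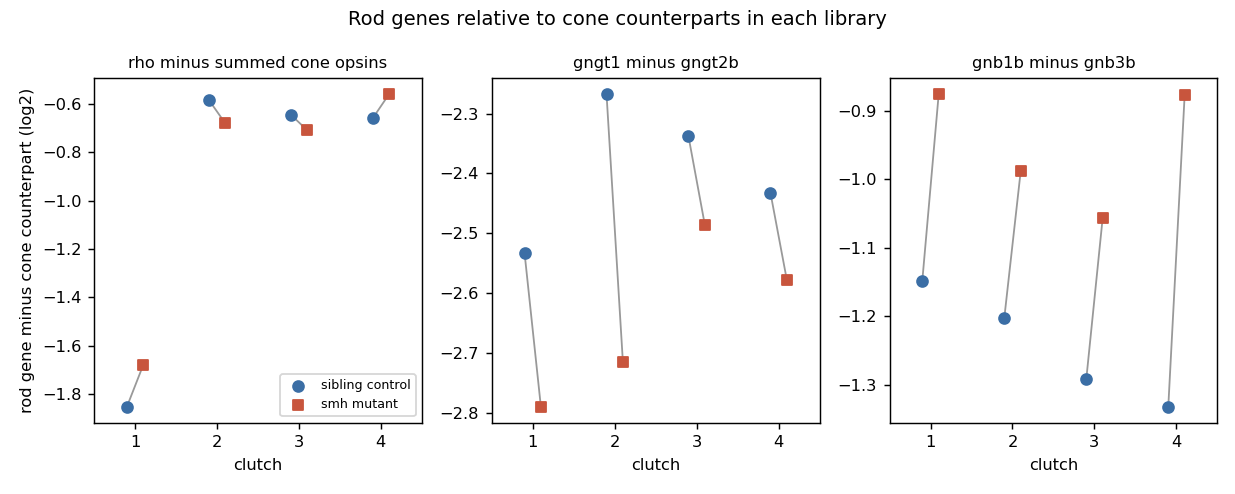
The x axis is clutch, and the y axis is the log2 value of a rod gene minus that of its cone counterpart in the same library, for 3 pairs with y ranges of their own. Circles are siblings, squares are mutants and lines join clutch mates. The rho panel shows clutch 1 at -1.85 and -1.68 and all other libraries between -0.71 and -0.56. In the gnb1b panel all 4 mutants lie above all 4 siblings, but gnb1b is also used outside photoreceptors.

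How far the 9 genes varied together was described over the 8 libraries, which share 4 clutches and are not independent. Pearson r between pairs of the 9 ran from -0.21 to 0.97, with a median of 0.58, and 33 of 36 pairs were above 0. The highest was that of rho with nrl (r = 0.97, and 0.85 over the 6 libraries of clutches 2 to 4). Without clutch 1, the median over pairs was -0.04 and 18 of 36 were above 0. Every pair among rho, nrl, gngt1, saga and pde6a stayed above 0, at 0.20 to 0.90. That group was picked after its values were seen. Other pairs with a high r over those 6 libraries were saga with pde6a (0.90), sagb with gnat1 (0.87) and rho with gngt1 (0.82). Strongly negative over the same 6 libraries were sagb with pde6b (-0.81), rho with gnb1b (-0.75), gngt1 with gnb1b (-0.74) and gnat1 with saga (-0.71).

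Among 13147 tested genes with a mean of at least 5 CPM and a gene name, the 5 most like rho over the 8 libraries were kcnc3a, atp1a3b, dchs2, cntn4 and ntng1a (Pearson r = 0.99 to 1.00, and 0.63 to 0.93 over clutches 2 to 4). None of them is in the photoreceptor lists. For gngt1 they were exd3, scg2b, fam151a, entpd8 and slc6a19b (r = 0.94 to 0.98, and 0.85 to 0.98 over clutches 2 to 4). The nearest gene was sox4b for gnat1 (r = 0.97), man2a2 for gnb1b (0.98), impg1b for saga (0.97), phyh for sagb (0.97), pdxdc1 for pde6a (0.98), acap2 for pde6b (0.97) and sik2b for nrl (0.99). Of the 45 places in these rankings, 1 was held by a gene of the photoreceptor lists, guca1c, second to impg1b for saga (r = 0.96).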

How the data were processed

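Reads of total RNA from pooled larvae were filtered with SOAPnuke 1.5.2, per the labels' protocols. GRCz11, HISAT2 2.0.4, Bowtie2, RSEM and limma are named, without role or order, per the submitters' processing notes. The authors deposited log2 values per library, read as log2 CPM because, once unlogged, each library totals 997999 to 998006. Quantiles were nearly equal, so the unit is an inference and depth and its precision are unknown. The authors' deposited table also gives a log2 fold change, a p-value and a score per gene, and the scores were not used.

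Genes with at least 4 libraries at 0 log2 CPM or more were tested with limma 3.58.1 in R 4.3.3 (genotype, trend, robust, Benjamini-Hochberg, threshold 0.05). No pseudocount was needed. Clutch numbers pair the libraries, as the labels state; deviations from group means correlated by 0.72, 0.50, 0.50 and 0.30 in clutches 1 to 4. The fit without clutch was the main one. The procedure was tested on simulated data. Alternatives were a clutch block, other filters, scalings, weights and moderation, and exclusion of libraries and clutches; the block combined with the others was added after seeing the data.

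The members and lists were chosen with earlier results of these data known. Genes named are the 9 members, cone counterparts, ccdc103, up to 4 called genes of each list (or the 2 with the highest CPM), and the 5 genes most like each member. rpe65a and rdh5 complete the 6 called genes of pigment epithelium. rom1a, rom1b, grk1a, pde6ga, gnb1a, cngb1a, nr2e3, guca1e, exorh, gnb3a, pde6hb, tbx2b, otx5 and crx were named after their values were seen. Gene IDs of the 9 members matched RefSeq genes of GRCz12tu, and 0 of them lie on the chromosome of ccdc103; that build is not GRCz11, so positions are not given.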

Additional observations from a re-analysis of the deposited data

Results flagged for a closer look

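Of 36 sets of 4 libraries scanned (each of the 9 genes and 9 pairs in each genotype), 7 had a library far from the others, where chance flags about 1 in 20 independent sets. These sets are not independent, since each pair reuses a rod gene, and 4 of the 7 rest on the same low rho of clutch 1, so the number is not read against that rate. rho in clutch 1 stood at 9.95 log2 CPM among siblings, where the others had 11.47 to 11.66, and at 9.88 among mutants, where the others had 11.33 to 11.42. rho minus the summed cone opsins was -1.85 in the sibling of clutch 1, against -0.66 to -0.58 in the others, and -1.68 in the mutant, against -0.71 to -0.56. nrl minus thrb was -3.04 in the sibling of clutch 1, against -2.12 to -2.03. In that library thrb itself was high, at 4.47 log2 CPM against 4.11 to 4.16 in the other siblings. gnb1b in the mutant of clutch 1 was at 7.61 log2 CPM, against 7.82 to 7.83. The library outside clutch 1 was the mutant of clutch 3 for sagb, at 4.57 log2 CPM against 3.62 to 3.66.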

How the results depend on the processing

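With clutch as a block, 2 rod members, 2 genes of the wider rod list and 472 genes in all were called, in place of 0, 0 and 15. The blocked calls of gngt1 and sagb were both lost without trend and robust estimation, which left 50 calls over all genes. Without the block, no alternative called a rod member, and calls over all genes were 7 with a mean of at least 5 CPM, 41 with array weights, 5 to 15 without 1 library, 20 without clutch 1, and 0 or 1 without clutch 2, 3 or 4. Members called between clutches numbered 2 without clutch 1, against 9.94% of all genes, and 4 to 6 without another clutch, against 31.7% to 38.5%. They numbered 7 with median-ratio rescaling (35.7% of all genes) and 5 without trend and robust estimation (13.1%). Also without the block, leaving out libraries moved the difference of rho between -0.57 and 0.21 and that of pde6b between -0.0015 and 0.13. Neither passed. With clutch as a block, leaving out libraries gave -0.20 to -0.14 for rho and 0.0023 to 0.096 for pde6b, so neither turned sign. Without the block, other genes kept their sign. There gnat1 ran from -0.18 to -0.035, saga from -0.27 to -0.10 and sagb from -0.59 to -0.15. The range was -0.25 to -0.0093 for pde6a and -0.31 to -0.026 for nrl. The pairs were likewise compared without regard to clutch. There, leaving out libraries moved rho minus cone opsins from -0.28 to 0.29 and gnat1 minus gnat2 from -0.11 to 0.092. It moved saga minus arr3a from -0.11 to 0.16, sagb minus arr3a from -0.38 to 0.077 and pde6a minus pde6c from -0.16 to 0.12. The range was 0.0012 to 0.34 for pde6b minus pde6c and -0.44 to -0.027 for nrl minus thrb. With clutch pairs, the exact sign-flip test cannot go below 0.125. nrl has no value under the filter at 5 CPM, being below it. Rescaling moved the median of all genes by under 0.01.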
